A study of Mus musculus with 8 samples.

Results

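Gm symbols, the letters Gm followed by digits alone, are provisional names that mouse genome annotation gives to predicted genes before their function is known. The genes described here were all those whose symbol in the deposited catalogue of transcription start sites had this form. There were 1256 such genes among 16094 genes (7.80%, 95% Wilson interval 7.40 to 8.23). They held 1957 of 46376 clusters with a symbol (4.22%), and 84475 clusters were listed in all. The choice used the symbol alone and no measured value. Intervals throughout cover counting error only, and clusters and genes are not replicates of mice, so no test was made between Gm genes and other genes.

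The catalogue was made by CAGE, which sequences the capped 5′ ends of RNA, in 8 samples of facial skin from C57BL/6 mice aged 28 days after birth. Lesional skin was taken in 4 of the samples, from Ikk2FL/FL mice that carried Cre. Skin without lesions was taken in the other 4, from mice whose genotype is given only as control. Lesion and genotype thus change together, and whether the controls carried floxed alleles or Cre is not given in the sources used here. Ikk2 (the gene Ikbkb) encodes a kinase that activates NF-κB. The Cre is named after nestin in the series text and written Nectin-cre in the labels, and the skin cells in which it acted are not stated there. The names of the 8 columns of values match no sample label, so those columns were not used: no level, no count of libraries and no difference between lesional and control skin is given, and the depth was not analysed here. Marker genes were looked up for the presence of a cluster alone, which does not show that the tissue was facial skin. Of 29 marker genes of keratinocytes, hair follicle, fibroblasts, muscle, immune cells, endothelium and melanocytes, 28 had a cluster, and the exception was the B cell gene Cd79a. A cluster is a stretch of genome where tags start, printed with its mm9 start and end as deposited, and its span is the end minus the start.

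A processed pseudogene is a copy of a messenger RNA that was written back into the genome, usually without the promoter of its source. Copies of mitochondrial DNA are also found in nuclear chromosomes. Many long non-coding RNAs start beside the promoter of a coding gene and run away from it, and some Gm genes encode proteins of known families that have not been renamed. Reads from near-identical copies can be shared between them, so the values of copies carry that uncertainty, and the counting rule of the authors is not given in the sources used here.

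The genes with the most clusters were largely copies of mitochondrial genes. Of the 1256 Gm genes, 11 had 10 or more clusters, and these are set apart here by that number. The number depends on how clusters are counted: 1 gene reached it with clusters of at least 10 bp alone, and 0 when clusters no more than 100 bp apart were joined. Compared by sequence with all other GENCODE M21 transcripts, 7 of the 11 matched mitochondrial genes over nearly their whole length. Gm11410, with 32 clusters, matched mt-Cytb at 92.9% identity over 1142 aligned bases with 81 mismatches. Gm13340, with 29 clusters, matched mt-Co1 at 97.6% over 1545 bases. Gm10925 and Gm10222, with 20 clusters each, were identical to mt-Atp6 over 678 bases and to mt-Nd4l over 294 bases. The first 150 aligned bases of Gm11410, Gm13340 and Gm10925 are printed from GENCODE M21 beside the mitochondrial gene, 5′ to 3′, with capitals where the pair differs. They show how close these nuclear copies are to their mitochondrial counterparts.
Gm11410: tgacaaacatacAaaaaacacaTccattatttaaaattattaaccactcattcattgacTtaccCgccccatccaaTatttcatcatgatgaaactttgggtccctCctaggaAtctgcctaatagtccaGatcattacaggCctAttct
mt-Cytb: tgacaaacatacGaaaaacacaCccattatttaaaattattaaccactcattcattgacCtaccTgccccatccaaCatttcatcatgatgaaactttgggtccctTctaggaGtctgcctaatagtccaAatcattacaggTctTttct
Gm13340: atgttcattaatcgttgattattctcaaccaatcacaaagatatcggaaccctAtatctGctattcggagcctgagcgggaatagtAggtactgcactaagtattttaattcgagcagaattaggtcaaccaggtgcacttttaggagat
mt-Co1: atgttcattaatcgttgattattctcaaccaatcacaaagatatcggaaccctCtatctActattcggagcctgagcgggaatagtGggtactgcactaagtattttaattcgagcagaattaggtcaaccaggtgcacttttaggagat
Gm10925: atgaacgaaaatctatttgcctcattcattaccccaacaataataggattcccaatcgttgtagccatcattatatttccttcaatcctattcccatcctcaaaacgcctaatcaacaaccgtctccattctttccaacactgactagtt

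Over these 150 bases, Gm11410 differed from mt-Cytb at 10 and Gm13340 from mt-Co1 at 3. The stretch of Gm10925 differed from mt-Atp6 at 0 bases, so 1 line stands for both. The other matches in this group were Gm11408 with mt-Nd6 (93.6% over 519 bases), Gm13339 with mt-Nd2 (96.7% over 510 bases) and Gm13341 with mt-Co2 (95.9% over 684 bases). The matched genes encode cytochrome b and subunits of NADH dehydrogenase, cytochrome c oxidase and ATP synthase, all parts of the respiratory chain and ATP synthesis. An 8th gene with several clusters, Gm11407, had 6 and matched mt-Nd5 at 92.3%. A further Gm pseudogene, Gm11835, matched mt-Nd2 at 78.5% and had 1 cluster of 2 bp. No cluster lay on the mitochondrial chromosome among the clusters analysed here, and none of the matched mt- genes was listed. Whether reads of mitochondrial RNA were placed at these nuclear copies was not tested.

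These 8 genes stood at 3 loci that together held 125 of the 1957 Gm clusters (6.39%, 95% Wilson interval 5.39 to 7.56). On chromosome 1 (mm9), Gm10222 and Gm10925 had 40 clusters from 24618446 to 24622440, all on the minus strand. On chromosome 2, Gm13339, Gm13340 and Gm13341 had 33 distinct clusters from 22444107 to 22446055, again all on the minus strand. Clusters there were given to neighbours together: all 11 of Gm13339 and 6 of the 10 of Gm13341 were also listed for Gm13340 or each other, so the 3 counts add up to more than the clusters. On chromosome 4, Gm11407, Gm11408 and Gm11410 had 52 clusters from 79648372 to 79650816, of which 35 were plus-strand starts and 17 were minus-strand starts. Starts on both strands were interspersed over this stretch of 2444 bp. The clusters also reached beyond the annotated genes. Those of Gm10222 extended over 2067 bp, whereas the GENCODE gene is 294 bp long, and those of Gm10925 over 1692 bp for a gene of 678 bp.

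**Figure D1:**
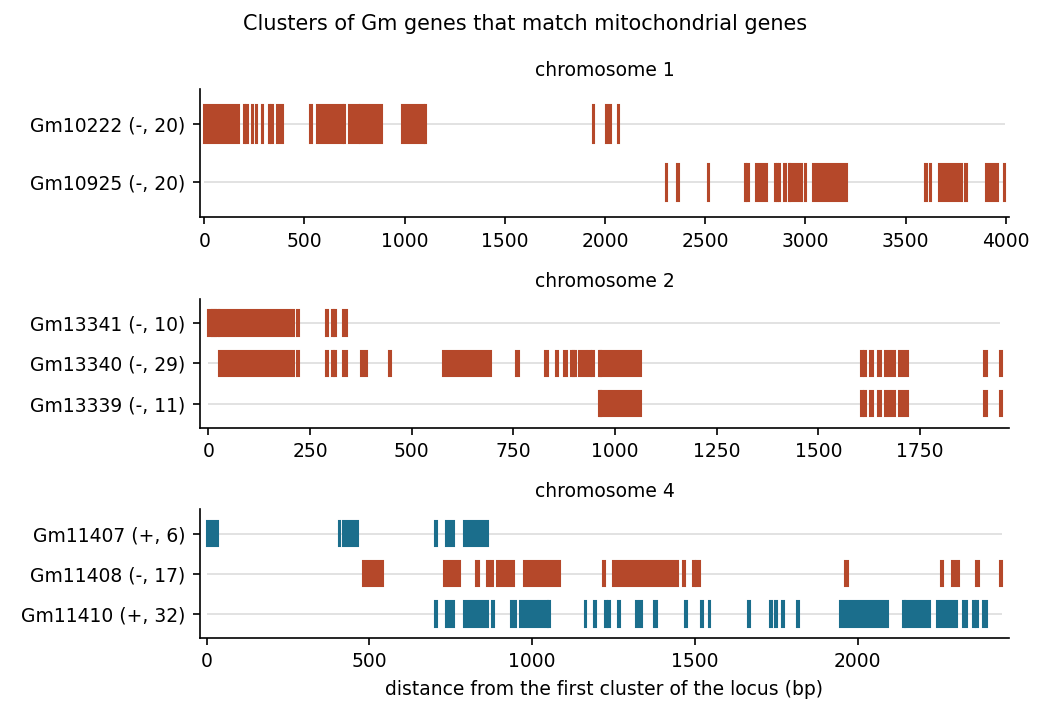
Positions of CAGE clusters at the 3 loci whose Gm genes match mitochondrial genes. The horizontal axis is the distance in bp from the first cluster of each locus, each row is 1 gene with its strand and number of clusters, red marks minus and blue plus strand, and clusters are drawn to scale but at least 6 bp wide. Starts are spread along each locus, and on chromosome 4 both strands carry them.

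Within these genes the starts were dispersed. Gm11410 had clusters covering 34.8% of the 1697 bp between its first and last, with a median gap of 25 bp and a widest cluster of 146 bp. Gm13340 had clusters covering 27.8% of 1921 bp, and its widest spanned 184 bp. Of the 32 clusters of Gm11410, 22 spanned under 10 bp, as did 22 of the 29 of Gm13340. Joining clusters no more than 100 bp apart left 4 groups for each of these genes. The 8 genes were typed as pseudogenes in GENCODE, with Gm11407, Gm11408 and Gm11410 called processed and the other 5 unprocessed.

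The remaining 4 genes with 10 or more clusters were of other kinds. Gm10800, with 18 minus-strand clusters from 98506441 to 98507489 on chromosome 2, is typed as protein-coding and matched no gene outside the Gm series. It belongs to a set of 12 near-copies in GENCODE, of which 9 were listed, the other 8 on chromosome 9 with 28 clusters summed over the genes. Identity to Gm10800 ran from 89.2% to 93.4%. The transcript of Gm10800 is itself repetitive: shifted by 225 bases against itself it had the same base at 56.3% of positions, against a median of 30.7% over 311 shifts. Its first 225 bases are printed from GENCODE M21, with capitals for bases that recur 225 bases further on, to show this repeat.
Gm10800: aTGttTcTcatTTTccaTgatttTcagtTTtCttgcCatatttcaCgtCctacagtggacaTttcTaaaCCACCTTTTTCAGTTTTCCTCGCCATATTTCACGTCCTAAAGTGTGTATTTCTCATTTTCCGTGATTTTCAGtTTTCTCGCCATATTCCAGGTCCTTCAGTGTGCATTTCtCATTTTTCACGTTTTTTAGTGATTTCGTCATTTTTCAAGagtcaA

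Gm11571, with 14 plus-strand clusters from 99913400 to 99914561 on chromosome 11, is an antisense RNA in GENCODE. It shares 119 identical bases, 4.97% of its 2396-base transcript, with the overlapping hair keratin gene Krt32. The only other gene with clusters listed within 5000 bp of these starts was Krt31. The widest cluster of Gm11571 spanned 116 bp and 11 of the 14 spanned under 10 bp. Gm16136, with 10 clusters on chromosome 15 from 37162567 to 37163086, is antisense to Grhl2, which encodes an epithelial transcription factor. One of its clusters lay 16 bp from a Grhl2 cluster on the opposite strand, facing away from it. Gm11570 is now named Krtap16-1, a keratin-associated protein gene, and had 10 minus-strand clusters from 99846947 to 99847925 on chromosome 11. None of these was wide: the largest spanned 18 bp and 9 spanned under 10 bp. Just under the number that set genes apart stood Gm12037 and Gm17602 with 9 clusters and Gm5860, Gm12824 and Gm20460 with 8 (all those of Gm12037, Gm17602 and Gm20460 were also given to other genes), while Gm16136, Gm13341 and Gm11570 stood just inside it with 10.

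A working description of these genes as processed copies of expressed genes went against the annotation and the matches. GENCODE typed 2 of the 11 as processed pseudogenes, 5 as unprocessed pseudogenes, 2 as long non-coding and 2 as protein-coding. None had a nuclear protein-coding gene without a Gm symbol as a match over most of its length. They contributed 174 of the 1957 Gm clusters (8.89%). Their clusters were narrow, with a median span of 4 bp and 69.5% under 10 bp, against a median of 13 bp and 45.5% under 10 bp for the other Gm genes. Gaps between their neighbouring clusters had a median of 23 bp, against 150 bp in the other Gm genes. The 11 were picked by their number of clusters. Spans and gaps were not measured apart for the 804 genes without a Gm symbol that also had 10 or more clusters. Whether these differences come with that choice was not tested.

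Most Gm genes had a single cluster of starts. One cluster was listed for 934 of the 1256 (74.4%), against 43.3% of the 14838 other genes. There were 2 clusters for 186 Gm genes, 3 or 4 for 98 and 5 to 9 for 27. The share with 2 or more was 25.6% (95% Wilson interval 23.3 to 28.1) for Gm genes, against 56.7% (55.9 to 57.5) for other genes. Levels were not used, so these shares are not adjusted for expression.

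**Figure D2:**
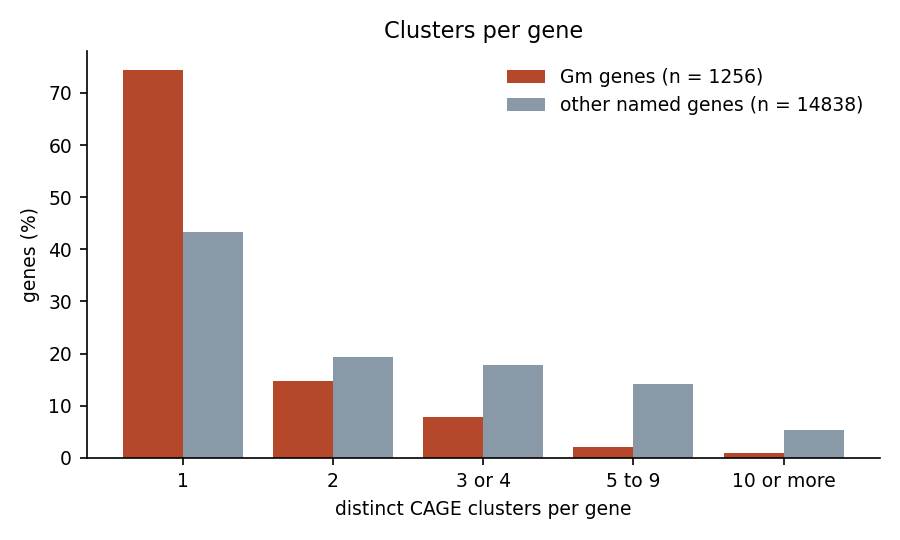
Number of distinct CAGE clusters per gene (horizontal axis) as a percentage of genes (vertical axis), for Gm genes in red and all other named genes in grey. A single cluster is listed for 74.4% of Gm genes and 43.3% of other genes, and 10 or more for 0.876% and 5.42%.

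Gm clusters had the same median width as those of other genes, but the widest cluster of a Gm gene was usually narrower. Over all clusters, the median span was 11 bp for Gm genes (quartiles 3 and 51) and 11 bp for clusters of other genes (3 and 87), while clusters without a symbol had a median of 3 bp. A span of 100 bp or more was reached by 10.3% of Gm clusters, against 21.5% of the clusters of other genes. The widest cluster of a Gm gene had a median of 26 bp (quartiles 5 and 71.2), against 115 bp (74 and 163) for other genes, and it stayed under 10 bp in 34.2% of Gm genes and 6.65% of other genes.

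Types were taken from GENCODE M21 for the 1112 Gm genes matched there, of which 1109 had the chromosome and strand of their clusters. Processed pseudogenes were the largest class, with 551 genes, followed by long non-coding RNAs with 330, a class that here includes 10 genes of the GENCODE type TEC, which awaits experimental evidence, and protein-coding genes with 195. Unprocessed pseudogenes numbered 27 and other types 9, and 144 genes were unmatched. The median widest cluster was 12 bp for processed pseudogenes (quartiles 3 and 38), 56 bp for long non-coding RNAs (12 and 94.2), 51 bp for protein-coding genes (10 and 90.5) and 37 bp for unprocessed pseudogenes. A cluster of at least 10 bp was lacking in 45.4% of processed pseudogenes and 22.1% of long non-coding RNAs.

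**Figure D3:**
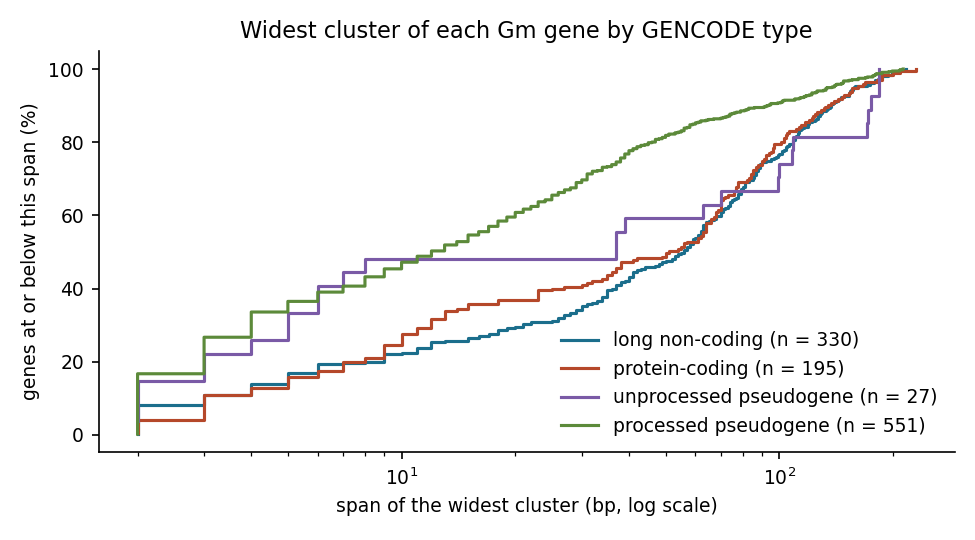
Cumulative share of Gm genes (vertical axis, %) whose widest CAGE cluster has at most the span on the horizontal axis (bp, log scale), by GENCODE type. The line of processed pseudogenes (n = 551) lies left of those of long non-coding (n = 330) and protein-coding genes (n = 195), with medians of 12, 56 and 51 bp.

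Nearly all pseudogenes matched a gene that was itself in the catalogue. Of the 578 Gm pseudogenes, 576 matched a gene at another locus that GENCODE types as protein-coding under a symbol other than a Gm one. A few of these have pseudogene-like names, such as Rps12-ps3 and Ftl1-ps1, and Rps27rt, the match of Gm17241, is listed in the catalogue under its older symbol Gm9846. Of the 567 with a nuclear match, 553 (97.5%, 95% Wilson interval 95.9 to 98.5) matched a gene with a cluster of its own. The share of all protein-coding GENCODE genes with a cluster was not computed, so how 97.5% compares with it is not known. Identity was high, with a median of 98.2% (quartiles 95.8 and 99.4) for the 546 processed pseudogenes with a nuclear match. Over at least 90% of their length, 543 pseudogenes were matched, 192 of them (35.4%) at 99% identity or more and 40 with no difference at all. Reads can be shared between such copies, most of which still differ from their match at some bases, and how reads were placed was not tested.

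Ribosomal protein genes were the most frequent match, with 153 of 576 pseudogenes (26.6%, 95% Wilson interval 23.1 to 30.3) matching 59 different genes. Their start sites were small: the median widest cluster was 5 bp, and 14 of the 153 (9.15%) had 2 or more clusters. Over all 576 matched pseudogenes these values were 12 bp and 20.5%. The matched ribosomal protein genes had a median of 4 clusters and a median widest cluster of 138 bp, counted once per pseudogene. Rpl21, which encodes a protein of the large ribosomal subunit, was matched by 13 Gm pseudogenes. Each of these had 1 cluster, of 2 bp in Gm12618 and Gm13653 up to 13 bp in Gm8880, whereas Rpl21 had 6 clusters and a widest of 91 bp. Hnrnpa3, a gene of an RNA-binding protein, was matched by 9 pseudogenes, and Gapdh, the gene of a glycolytic enzyme, by 6. Among the copies of Hnrnpa3, Gm11847 stood apart with 3 clusters and a widest of 122 bp, and among those of Gapdh, Gm5069 had a single cluster of 140 bp.

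A few processed copies had wide or numerous clusters. Gm6863 had 7 clusters and 1 mismatch over 625 bases with Naca, the gene of a chaperone of newly made proteins. Gm4204 had 6 clusters, the widest of 133 bp, and 3 mismatches over 1234 bases with Nap1l1, a histone chaperone gene. Gm8203, with 2 clusters of up to 179 bp, was identical over 387 bases to H2afz, which encodes the histone variant H2A.Z. Among the 10 Gm genes with the widest cluster, 3 were processed pseudogenes, namely Gm10060 (213 bp, matching Nsfl1c), Gm13092 (209 bp, matching Snrpf) and Gm5812, now Fbl-ps2 (208 bp, matching Fbl).

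Long non-coding Gm genes often started back to back with another named gene, coding or not. A cluster lay no more than 400 bp from a cluster of another named gene on the opposite strand, the minus strand first along the chromosome, for 145 of 330 long non-coding Gm genes (43.9%, 95% Wilson interval 38.7 to 49.3). The share was 8.21% (5.11 to 12.9) for protein-coding Gm genes and 0.544% (0.185 to 1.59) for processed pseudogenes, where 3 of 551 had such a partner. Partners with a Gm symbol were not counted. Over all Gm genes the share was 16.1%, against 13.8% for other genes, whose pairs with Gm genes are thus left out. The 2 shares are therefore not counted against the same set of partners. GENCODE types 13 of the 330 by a bidirectional promoter, which is a call from position. Without them the share was 42.3%. A further 164 are typed as antisense, which is also a call from position, and these were kept in both shares.

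**Figure D4:**
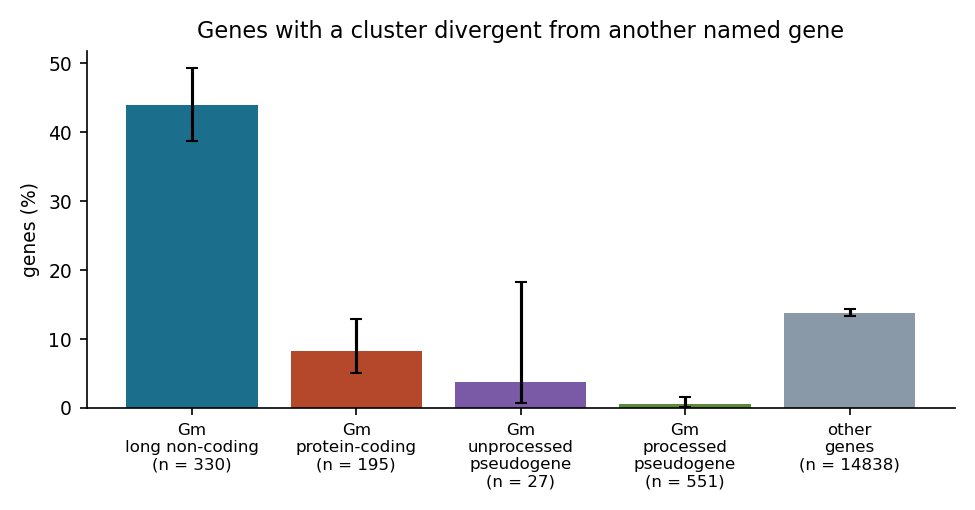
Percentage of genes with a cluster no more than 400 bp from, and divergent to, a cluster of another gene without a Gm symbol. Bars are Gm genes by GENCODE type and all other genes, with 95% Wilson intervals. Long non-coding Gm genes reach 43.9% and processed pseudogenes 0.544%.

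Over Gm genes of all types, the partners with the widest clusters were the following, with the last place tied between Ccpg1 and Slain2, the partner of Gm9870, at 208 bp. Gm16091 had a cluster of 140 bp on the minus strand of chromosome 8, from 74684686 to 74684826, and the cluster of Rab8a, a gene of vesicle transport, began 252 bp further on with a span of 233 bp. Gm10638, called long non-coding in RefSeq and protein-coding in GENCODE, started 18 bp from a cluster of 217 bp of Siah1a, a ubiquitin ligase gene. Gm10489 lay 201 bp from a cluster of Mid1ip1 on chromosome X, and Gm16283 lay 104 bp from one of Dtwd2. Gm5918, now Ccpg1os, had a cluster of 147 bp at 31 bp from Ccpg1. Gm12300, now Myhas, started 198 bp from Myh4, a myosin gene of fast skeletal muscle, with a cluster of 157 bp. This pair was chosen after its values were seen.

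The median number of CG dinucleotides was higher in promoters matched to long non-coding Gm genes than in those matched to protein-coding ones. A RefSeq promoter of GRCm38.p6, 250 bases before to 50 after the annotated start, was matched for 292 of the 1256 genes, and its annotated start was not compared with the mm9 clusters. The median number of CG dinucleotides in the 300 bases was 17 for 165 long non-coding genes, 4 for 112 protein-coding genes, 7 for the 87 of these outside the keratin-associated family, and 7 for all 27025 promoters of the table. RefSeq types 5 of the 165 as protein-coding, among them Gm12940 and Gm15832, whose promoters are those of Sfpq and Rnf149 by older symbol, and the median was 17 for the other 160. Among long non-coding genes it was 28 for the 76 divergent from a named gene and 8 for the other 89. The motif GGGCGG, searched on both strands, occurred in 71.1% and 42.7% of these, and in 35.9% of all promoters. The promoter of Gm15706, a divergent long non-coding gene on chromosome 6 (GRCm38.p6, chr6:145250279-145250578, plus strand), is shown with CG in capitals as an example rich in CG. That of Gm14005 (chr2:128429302-128429601, minus strand) is shown as one with 8.
Gm15706: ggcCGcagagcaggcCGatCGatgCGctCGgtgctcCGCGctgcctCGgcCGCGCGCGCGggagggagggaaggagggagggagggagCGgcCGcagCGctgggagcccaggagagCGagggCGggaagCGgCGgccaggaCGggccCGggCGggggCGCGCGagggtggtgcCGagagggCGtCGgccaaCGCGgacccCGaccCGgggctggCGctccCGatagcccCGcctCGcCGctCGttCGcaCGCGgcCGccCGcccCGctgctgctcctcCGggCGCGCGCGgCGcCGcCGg
Gm14005: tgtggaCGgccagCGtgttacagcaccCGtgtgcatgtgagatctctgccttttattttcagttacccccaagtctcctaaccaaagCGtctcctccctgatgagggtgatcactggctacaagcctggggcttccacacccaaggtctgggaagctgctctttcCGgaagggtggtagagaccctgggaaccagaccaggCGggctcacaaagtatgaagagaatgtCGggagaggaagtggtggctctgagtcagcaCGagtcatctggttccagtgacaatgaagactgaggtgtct

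Gm14005 is now named Morrbid, a long non-coding RNA known for controlling the survival of short-lived myeloid cells in mice. It had 4 clusters from 128254783 to 128255131 on the minus strand of chromosome 2 (mm9), and its widest, at 210 bp, was among the 10 widest of all Gm genes. Other Gm symbols that now name long non-coding RNAs, picked after their values were seen, included Gm15051, now Hotairm1, with 1 cluster of 130 bp in the HoxA region, and Gm11974, now Snhg15, with 3 clusters of up to 112 bp, all also given to SNORA9. Gm14047, now Il1bos, antisense to the interleukin gene Il1b, had a single cluster of 2 bp.

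Of the 195 protein-coding Gm genes, 29 belonged to the keratin-associated proteins of hair. The share of this family among all genes of the catalogue was not computed. Keratin-associated proteins form the matrix around keratin filaments in the hair shaft. By current name or best match, 33 Gm genes belonged to this family, 29 of them protein-coding, with identities to the best named member from 74.6% to 98.99%. They lay on chromosome 11 (17 genes), chromosome 10 (10), chromosome 7 (5) and chromosome 16 (1). Their clusters were short: 21 of 33 had 1 cluster, and the widest had a median of 10 bp. The exceptions over 20 bp were Gm11559 at 76 bp, Gm3250 at 73 bp and Gm11567 at 38 bp. Copies as close as Gm11937 and Krtap2-4 (98.99% identity) can share reads.

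The motif TATAAA, searched on both strands of the 300 bases, was present in 19 of 25 promoters of protein-coding Gm genes of this family (76.0%). It was present in 14.9% of the 87 other protein-coding Gm genes and in 14.2% of all promoters. These 25 promoters had a median of 1 CG dinucleotide. GGGCGG occurred in 0 of them. The promoter of Gm11570, the Krtap16-1 gene with 10 narrow clusters, is printed from RefSeq (GRCm38.p6, chr11:99986544-99986843, minus strand) with TATAAA in capitals, as an example of this motif.
Gm11570: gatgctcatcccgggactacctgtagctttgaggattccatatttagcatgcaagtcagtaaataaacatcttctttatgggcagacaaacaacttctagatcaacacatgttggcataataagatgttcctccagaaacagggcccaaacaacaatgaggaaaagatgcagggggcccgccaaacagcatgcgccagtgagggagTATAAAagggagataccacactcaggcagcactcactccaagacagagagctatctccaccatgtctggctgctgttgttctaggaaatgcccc

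**Figure D5:**
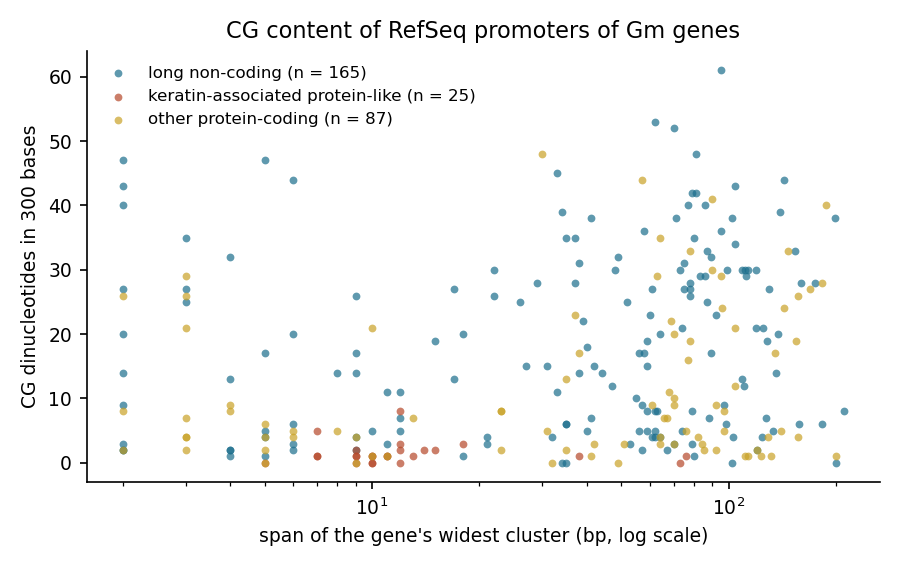
Number of CG dinucleotides in the 300-base RefSeq promoter (vertical axis) against the span of the gene's widest CAGE cluster (horizontal axis, bp, log scale) for long non-coding (n = 165), keratin-associated protein-like (n = 25) and other protein-coding Gm genes (n = 87). Keratin-associated protein-like genes sit low, with a median of 1 CG, and long non-coding genes have a median of 17.

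Over all types, the median CG number was 5 for the 71 promoters of Gm genes whose widest cluster was under 10 bp, 7 for the 76 with 10 to 49 bp and 17 for the 145 with 50 bp or more. Other genes of the epidermis and its defence were few. Gm5414, which matched the stress keratin gene Krt6a at 86.5%, had 1 cluster of 9 bp, and Gm9782, now Lce3d of the late cornified envelope, had 2 of up to 10 bp. Of the genes now named as relatives of stefin A, an inhibitor of cysteine proteases, Gm5416 (Csta3) had 1 cluster of 120 bp, which was also given to Gm10913, a processed pseudogene, and Gm1975 (Cstdc6) had 2 of up to 162 bp. Gm5483 (Cstdc4) had 1 of 2 bp and Gm5689 (Cstdc7) had 1 of 8 bp. Gm16340, now Ifi203-ps, a pseudogene of an interferon-inducible gene, had 1 cluster of 37 bp.

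Some Gm symbols were attached to start sites of neighbouring genes. Of the 1957 clusters, 174 (8.89%, 95% Wilson interval 7.71 to 10.2) were given to 2 or more genes, against 1.72% of named clusters without a Gm symbol. Clusters given to both a Gm gene and another gene count on the Gm side alone. The 2 shares are therefore not counted by the same rule. In 146 of the 174, another gene had no Gm symbol. For 59 Gm genes (4.70%) every cluster was shared in this way, so no start site is particular to them. The most crowded were in the T cell receptor beta locus on chromosome 6. There Gm17602, now the joining segment pseudogene Trbj2-6, had 9 clusters from 41492737 to 41493814, all shared with neighbouring segments, and 2 of them were given to 8 genes. The wider of these spanned 209 bp. Next came clusters given to 3 genes each, such as one of Gm11398 with the histone genes Hist1h1e and Hist1h2be (109 bp), one of Gm16049 with Gm16052 and Tcte2 (68 bp) and one of Gm15884 with the microRNA genes Mir141 and Mir200c (63 bp). Gm17405 had a single cluster of 206 bp that was also given to Ckm, the muscle creatine kinase gene, and Gm15444 shared its cluster of 216 bp with the histone gene Hist2h2ac. Gm20403 shared a cluster of 209 bp with Baz1a. Gm9781, now Eif3j2, had the widest cluster of all, at 230 bp, and Gm16023 had one of 201 bp.

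Start sites far apart within a Gm gene were rare. Neighbouring clusters 1000 bp or more apart on 1 strand were found in 13 of 1256 Gm genes (1.04%, 95% Wilson interval 0.606 to 1.76), against 16.7% (16.1 to 17.3) of other genes. Such a distance needs 2 or more clusters, which 322 Gm genes and 8420 of the 14838 other genes had. These shares are not adjusted for that. Counted per gap between neighbouring clusters, 1.92% of 731 in Gm genes and 11.0% of 30667 in other genes were this long. The largest distance in a Gm gene was 149414 bp, in Gm16039, now Umad1, on chromosome 6. Gm16869 on chromosome 9 followed with 18352 bp, Gm12905 with 12358 bp, Gm11595 with 7781 bp and Gm13826 with 7136 bp. The clusters of Gm11595 on the far side, from 99642011 on chromosome 11, were also given to Krtap4-8, and the Gm12905 cluster from 123582075 on chromosome 4 was also given to Gm17408. Gm clusters were found on 20 chromosomes, and none of the 7 named clusters of chromosome Y was one. Over the 20, the share of named clusters that were Gm clusters ran from 2.43% on chromosome 15 to 7.42% on chromosome 4. The 228 Gm clusters of chromosome 4 include the 52 of Gm11407, Gm11408 and Gm11410.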

How the data were processed

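CAGE libraries were made by the submitters from total RNA of facial skin, per the labels' protocols. The deposited table lists cluster positions, a symbol or a dot, and values. The submitters' processing notes name BWA, HISAT2 and build mm9, without versions. For cluster calling, the symbol rule and the base from which starts are counted, no source used here gives details. The 8 value columns match no label and were not used, so the planned comparison of lesional with control skin was not run.

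Rows of the same position were counted as 1 cluster. Symbols were matched to GENCODE M21 and to RefSeq GRCm38.p6 (762 current, 164 older, 330 unmatched), for names, types and sequences only. Transcripts were compared with BLAST+ 2.17.0 (e-value limit 1e-10, best hit outside the gene's own locus). Counting steps were tested on simulated data of 500 genes. Genes named were all with 10 or more clusters, the 10 widest, the 5 most distant, the most shared, the 5 divergent from the widest clusters, and skin families, the last by current symbol and best match because the table has no descriptions. Any other gene named, the printed stretch of Gm10925 (Gm10222, with as many clusters, has a shorter match) and the promoters of Gm15706 and Gm14005 were chosen after their values were seen. Members, types, lists and settings were chosen with earlier results of these data known. Python 3.11.15, pandas 2.3.3 and SciPy 1.17.1 were used.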

Additional observations from a re-analysis of the deposited data

How the results depend on the processing

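Counting only clusters of at least 10 bp lowered the Gm genes from 1256 to 826, their clusters from 1957 to 1025, the share with 2 or more clusters from 25.6% to 16.3% and those with at least 10 clusters to 1, against 11 with all clusters. The genes with clusters 1000 bp apart fell from 13 to 7. Joining clusters no more than 100 bp apart left 19.7% with 2 or more and 0 with 10 or more. Other thresholds gave 38 genes with 5 or more and 4 with 20 or more clusters, and 82 genes with clusters 500 bp apart. The median span was 26 bp for the widest cluster of each gene, against 11 bp over all clusters (exact 95% interval 10 to 13). Pseudogenes made up 60.7% of genes matched in RefSeq, 64.04% with current symbols only and 52.0% by GENCODE types. For shares and medians, a value was taken as moved when it left the 95% interval of the value reported, so a shift can be small where the interval is narrow. By that rule, and a ratio for counts, 13 alternative values moved and 14 did not. The 14 included the divergent shares, from 39.7% to 44.5% for long non-coding genes and from 0.544% to 0.664% for processed pseudogenes. The 13 moved values came from settings with fewer or joined clusters, other thresholds, the widest cluster of each gene, or other gene sets or types. What caused each change was not tested. The divergent settings, the GENCODE types and the narrow and joined settings for genes with many clusters were chosen after seeing the data. No paired analysis was possible because no column of values carries a sample's name. For the same reason the fits of lesional against control skin with another normalization, another filter, a replicate block or 1 replicate left out were not run.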

Other observations

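Gm symbols also named segments of the immunoglobulin heavy chain locus on chromosome 12. Gm16877, Gm16878 and Gm16879, now Ighd4-1, Ighj1 and Ighj2, shared 1 cluster of 5 bp from 114668632 to 114668637 on the minus strand. Gm16971, now Ighv5-4, had 1 cluster of 4 bp. The B cell marker Cd79a had no cluster among those analysed here. These values were looked up after the catalogue was seen, and which mice the clusters came from is not known.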
